A study of Rattus norvegicus with 98 samples.

Results

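Acetylation of histone H3 at lysine 27 (H3K27ac) was compared over 985 genomic windows that carried peaks of this mark in most libraries of 7 brainstem and diencephalic regions of the rat and in few libraries of 10 regions of the cortex, amygdala, striatum and hippocampus. The windows were 1 kb long, on chromosomes 1 to 20 of the Rn5 assembly, and a window was called occupied in a library when peaks covered 500 bp or more of it. A window was a member when it was occupied in 75% or more of the 28 libraries of MDT, LH, VTA, PAG, Raphe, LC and Snt and in 10% or less of the 40 libraries of PLC, ILC, CGC, InsularCortex, NaCshell, NaCcore, BLA, CMA, dorDG and venDG. These 985 were 0.347% of the 284178 windows occupied in 1 or more of 92 libraries.

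The study mapped H3K27ac by ChIP-seq, the sequencing of DNA that an antibody to the mark pulls down, in punches of male Long-Evans rats that were 2 months old at the start. The FT group drank fluoxetine, a selective serotonin reuptake inhibitor, at 18 mg/kg for 6 weeks, and the Sham group drank water for the same time. Each replicate of a region held punches pooled over several animals, so that the spread between replicates is a spread between pools. There were 46 FT and 46 Sham libraries of 24 regions, with 2 libraries per treatment in 21 of the regions and fewer in arc, PVN and MPOA. Different regions of a given replicate share their animals, so that p-values over regions measure the spread between regions and not that between animals. HB, the habenula, was kept apart from the rule and from all comparisons.

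H3K27ac is placed by acetyltransferases on nucleosomes at active promoters and enhancers, and a peak marks such an element as active in a part of the cells of a punch. Enhancers differ between brain regions more than promoters do. The brainstem and diencephalon arise from other parts of the neural tube than the cortex, striatum, amygdala and hippocampus, and they hold the serotonin neurons of the raphe nuclei, the noradrenaline neurons of the locus coeruleus and the dopamine neurons of the midbrain. In pooled tissue, fewer cells with an element and less acetylation of that element per cell cannot be told apart.

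In the plain terms of the rule, members were most common in the serotonergic Raphe and in Snt, the visceral sensory nucleus of the solitary tract. Raphe occupied 98.8% and 91.5% of the members in its Sham libraries and 99.5% and 96.6% in its FT libraries. Snt occupied 97.7% and 89.3% in Sham and 97.7% and 97.6% in FT. No library of either region was under 89.3%. VTA, the dopaminergic midbrain area, occupied 93.1% and 65.1% in Sham and 91.5% and 96.8% in FT. LH, the lateral hypothalamus, occupied 93.4% and 43.5% in Sham and 93.2% and 92.2% in FT. In both regions a single library, Sham replicate 2, lay far below the other three. LC, the noradrenergic locus coeruleus, occupied 89.3% and 54.6% in Sham and 96.4% and 78.3% in FT. MDT, the mediodorsal thalamus, occupied 74.2% and 66.1% in Sham and 86.3% and 86.8% in FT. PAG, the periaqueductal gray that takes part in pain control and defence, was the lowest of the 7, with 60.8% and 39.9% in Sham and 62.3% and 59.1% in FT. These values describe the choice of the windows and were not tested.

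**Figure D1:**
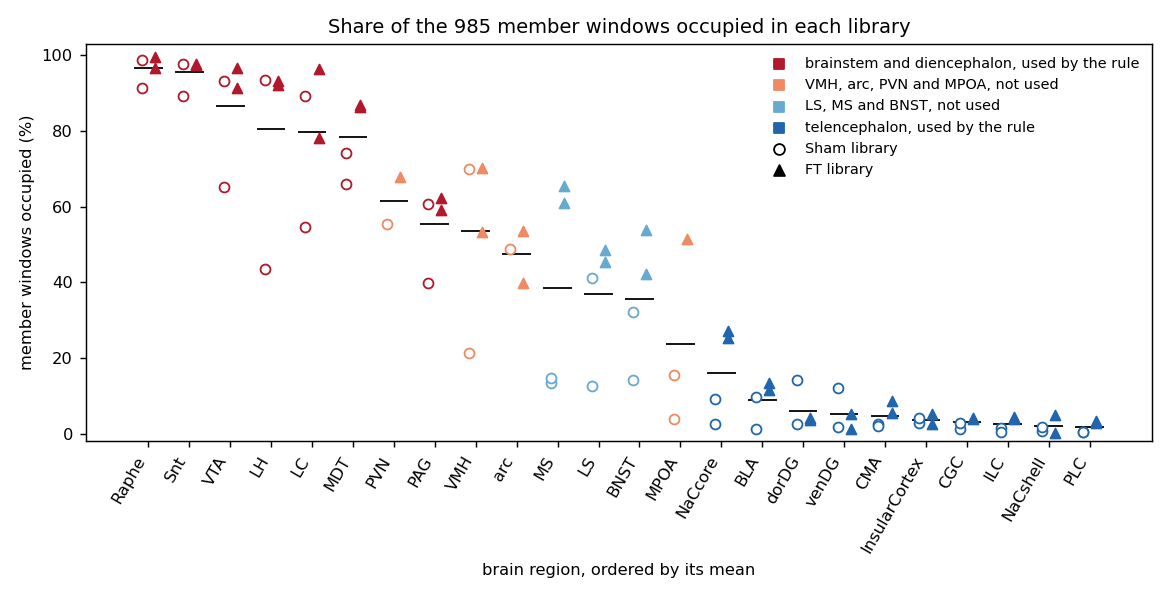
Percent of the 985 member windows occupied in each of 92 libraries, by brain region in order of the region's mean (black line), with Sham libraries as open circles and FT libraries as filled triangles. The brainstem and diencephalic regions of the rule lie toward the left, between 39.9% and 99.5%, with the unused PVN placed before PAG. The telencephalic regions of the rule lie on the right, at 27.2% or less. The 7 regions that the rule did not use lie mostly in between.

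Across the 40 telencephalic libraries of the rule the share of members ran from 0.305% to 27.2%, with a median of 3.50%. The libraries of the neocortical regions PLC, ILC, CGC and InsularCortex, and of NaCshell, held 5.08% or less each. NaCcore, the core of the nucleus accumbens, reached the highest shares of the 10 regions, with 2.54% and 9.24% in Sham and 25.2% and 27.2% in FT. BLA, the basolateral amygdala, held 9.75% and 1.32% in Sham and 11.5% and 13.3% in FT. In the dentate gyrus, Sham replicate 1 stood above the other libraries, at 14.1% in dorDG against 2.64% to 4.06%, and at 12.2% in venDG against 1.32% to 5.28%. Of the 139 members in the first of these libraries and the 120 in the second, 23 were in both, which is 16.5% and 19.2% of them. Over all windows the same libraries shared 73.5% and 82.0% of theirs. A member may be occupied in only a few telencephalic libraries, so that the rule itself keeps such overlaps low. The comparison with all windows therefore cannot tell whether these libraries share few members for any other reason.

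The word silent applies to the 500 bp threshold. When any peak base in the window counted, the telencephalic libraries touched 4.67% to 48.8% of the members, with a median of 27.5%, and the brainstem and diencephalic libraries touched 51.1% to 99.9%. Of the members, 177 were occupied in none of the 40 telencephalic libraries, 20 in all 28 of the brainstem and diencephalon, and 2 met both. At the edges of the rule, 297 members were occupied in exactly 21 of the 28 libraries and 408 further windows missed the rule at 20. At the other edge, 240 members were occupied in 4 of the 40 libraries and 269 windows missed it at 5. The median member was occupied in 22 of the 28 and in 2 of the 40.

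Since the rule used these libraries, the pattern was looked at again in libraries that had not chosen the windows. Windows were chosen by the same rule on the Sham libraries alone, which gave 873 windows, and were then measured in the FT libraries. The 14 FT libraries of the brainstem and diencephalon occupied 60.5% to 99.3% of them, with a median of 92.2%. The 20 FT libraries of the telencephalon occupied 0.916% to 43.6%, with a median of 12.7%. Region means were 88.3% ± 12.1 (SD, n = 7 regions) and 16.9% ± 11.5 (SD, n = 10 regions), a difference of 71.5 percentage points (two-sided exact permutation test over the 17 region means, p = 5.14e-05, the smallest it can give). With the treatments exchanged, 1589 windows chosen on FT libraries were occupied at 65.4% ± 18.6 (SD, n = 7 regions) in Sham libraries of the brainstem and diencephalon and at 4.85% ± 3.62 (SD, n = 10 regions) in those of the telencephalon, with the same p. The libraries of the 2 classes did not overlap in either direction. The animals measured here had no part in the choice of the windows. Their regions were sorted into the same 2 classes in the choice and in the test. The p-value thus cannot tell whether this division of regions is special. The values show only that the windows kept their pattern in the libraries of the other treatment. The highest telencephalic share, 43.6%, shows that single libraries of the telencephalon can hold a good part of such windows.

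Members fell into patterns over the 7 regions of the rule. Of the 985, 438 were occupied in 2 or more of the 4 libraries of all 7 regions, 500 in those of 6 regions and 47 in those of 5. Among the 500, PAG was the region that was missing for 340 (68.0%) and MDT for 84 (16.8%). No member lacked Raphe in this sense, and 10 of the 500 lacked Snt. All 4 libraries of Raphe occupied 864 members, and all 4 of Snt 852.

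PAG was split in a way the other regions were not. It occupied 364 members in all 4 libraries and 276 (28.02%) in none, where the other regions had between 0 and 23 members in none. PAG lists also held fewer of the windows that are common everywhere: of 32429 windows occupied in 75% or more of both the brainstem and the telencephalic libraries, called shared windows below, PAG libraries occupied 69.8% to 89.4%, against 83.4% to 99.9% in libraries of the other 6 regions. Among shared windows 5.62% were in no PAG library. The part of the PAG lists as a whole in the split was not tested. The 276 members without PAG were occupied at 90.3% over the libraries of the other 6 regions and the 364 with PAG at 82.4%. The rule's 75% favours this order, since members without PAG need more of the other libraries to pass. In regions the rule did not use, the members without PAG were at 34.8% in VMH, arc, PVN and MPOA against 46.7% for those with PAG, and at 46.8% in LS, MS and BNST against 29.3%. Within the first class VMH held both sets alike, at 48.9% without PAG and 49.3% with it. The split was noticed in the values and was not tested.

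**Figure D2:**
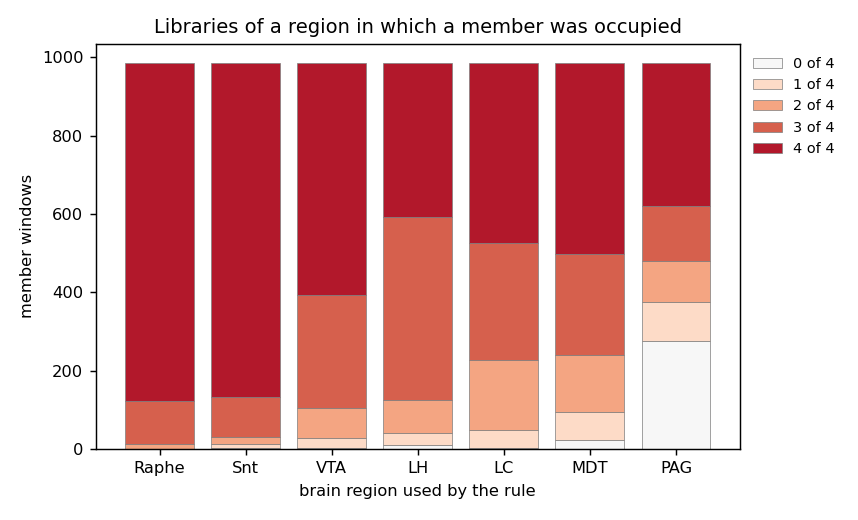
Number of member windows (vertical axis) occupied in 0, 1, 2, 3 or 4 of the 4 libraries of each region that the rule required (horizontal axis). Raphe and Snt occupied most members in all 4 libraries, and PAG alone had a large block, 276 members, in none.

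In 7 regions with 24 libraries the members had not been chosen, and there they were neither absent nor general. VMH, the ventromedial hypothalamus, occupied 69.9% and 21.2% of them in Sham and 53.3% and 70.3% in FT. PVN, which the label does not spell out and the study's list of regions gives as a nucleus of the thalamus, occupied 55.4% in its Sham library and 67.8% in its FT library. The arc region, the arcuate nucleus with its feeding and neuroendocrine neurons, occupied 48.9% in its Sham library and 53.6% and 39.9% in FT. MPOA, the medial preoptic area, occupied 15.4% and 3.96% in Sham and 51.4% in FT. MS, the medial septum, occupied 13.3% and 14.6% in Sham and 65.6% and 60.9% in FT. LS, the lateral septum, occupied 41.1% and 12.6% in Sham and 48.4% and 45.4% in FT. BNST, the bed nucleus of the stria terminalis, occupied 32.3% and 14.3% in Sham and 53.7% and 42.1% in FT. The septum and BNST are telencephalic by anatomy, so that the members are silent in the 10 telencephalic regions of the rule and not in the telencephalon as a whole.

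The order of these regions by mean was PVN with 61.6% ± 8.76 (SD, n = 2 libraries), VMH with 53.7% ± 23.0 (n = 4), arc with 47.5% ± 6.97 (n = 3), MS with 38.6% ± 28.5 (n = 4), LS with 36.9% ± 16.5 (n = 4), BNST with 35.6% ± 16.7 (n = 4) and MPOA with 23.6% ± 24.7 (n = 3). Neighbours in this order lay within the spread of their libraries. The mean over VMH, arc, PVN and MPOA was 46.6% and over LS, MS and BNST 37.0%, a difference of 9.56 percentage points (two-sided exact permutation test over 7 region means, p = 0.40, adjusted p = 0.40 by Benjamini and Hochberg over 5 tests of shares). The smallest p that 4 regions against 3 allow is 0.0286. Without MPOA the difference was 17.2 percentage points (exact permutation, p = 0.10). That is the smallest two-sided p that 3 regions against 3 allow. In the Sham libraries alone the difference was 18.5 percentage points, and in the FT libraries alone 4.24 (exact permutation, p = 0.20 and p = 0.60).

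The share of members moved with the extent of a list. Sham libraries of the 7 unused regions occupied 25694 to 75322 windows in all and FT libraries 61924 to 80717. In the units of members per 1000 occupied windows, the regions of the rule in the brainstem and diencephalon ranged from 8.73 in PAG to 12.5 in VTA as region means. VMH followed with 8.23, PVN with 8.21, arc with 6.22, MS with 5.94, LS with 5.51, BNST with 5.28 and MPOA with 3.65. NaCcore reached 2.25, BLA 1.19 and the other 8 telencephalic regions between 0.262 and 0.792. On this scale PVN and VMH lay next to PAG, a region that the rule required.

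**Figure D3:**
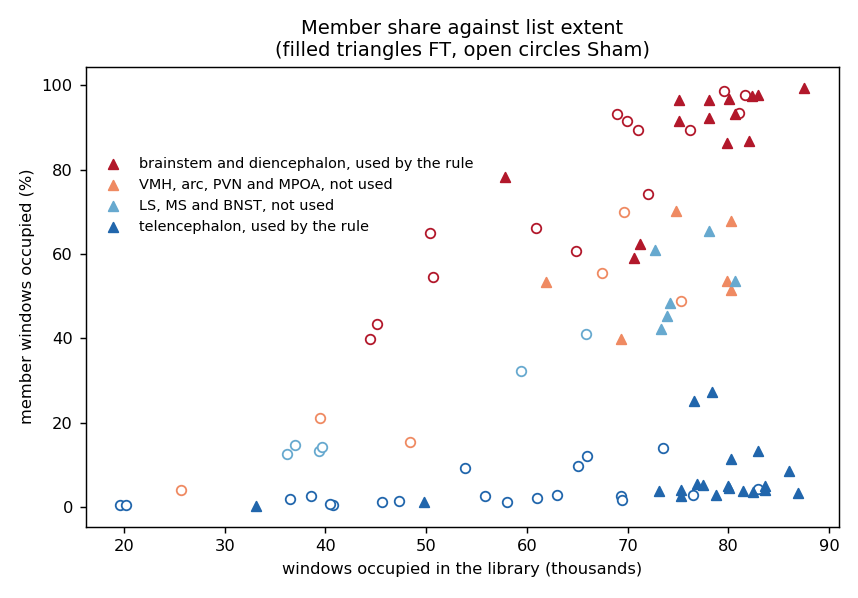
Percent of member windows occupied (vertical axis) against the number of windows that the library occupied in all (horizontal axis), for 92 libraries coloured by class of region, FT as filled triangles and Sham as open circles. Most brainstem and diencephalic libraries of the rule lie above the unused regions at like extents, save for PAG, which lies under some VMH libraries, and the telencephalic libraries lie lowest.

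A mirror set was built to show what a share means in a region that was not used. It held the 888 windows occupied in 75% or more of the 40 telencephalic libraries and in 10% or less of the 28 others. In VMH the members stood at 53.7% and the mirror set at 12.2% as region means, in PVN at 61.6% and 11.4%, and in arc at 47.5% and 24.2%. In LS the members stood at 36.9% and the mirror set at 44.5%, in BNST at 35.6% and 50%, in MS at 38.6% and 30.7%, and in MPOA at 23.6% and 27.97%. Members were thus ahead by 23.2 to 50.3 percentage points in VMH, arc and PVN, whereas LS, BNST, MS and MPOA held the 2 sets at levels from 14.4 points lower to 7.89 points higher for the members. With the mirror share taken off within each library, the difference between VMH, arc, PVN and MPOA and the LS, MS and BNST class was 32.3 percentage points (exact permutation over 7 regions, p = 0.114), a setting chosen after the data were seen. MPOA lay with the septum and BNST here and not with the class it was put in.

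**Figure D4:**
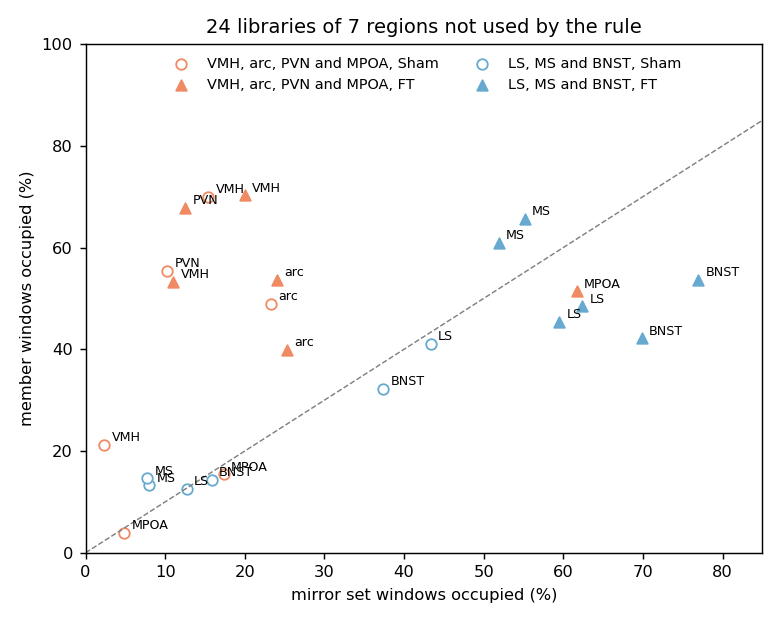
Percent of the 985 members (vertical axis) and of the 888 windows of the mirror set (horizontal axis) occupied in each of 24 libraries of regions that the rule did not use, with a dashed line of equality. All 9 libraries of VMH, arc and PVN lie above the line, and so do those of MS. The libraries of LS, BNST and MPOA lie near or below it.

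Single members varied more than the means show. Of the 985, 12 were occupied in none of the 24 libraries and 51 in 18 or more. Occupancy in 75% or more of the 12 libraries of VMH, arc, PVN and MPOA was found for 213 members (21.6%), and in 75% or more of the 12 libraries of LS, MS and BNST for 93 (9.44%). A pattern with 75% or more in the first class and 10% or less in the second was shown by 33 members and the reverse by 1. PVN occupied 453 members in both of its libraries, arc 323 in all 3, VMH 166 in all 4, and BNST, LS and MS 73, 70 and 38 in all 4. These counts depend on the number of libraries of the region and were not tested.

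The members found in NaCcore were set beside the rest. Both FT libraries of NaCcore occupied 147 members, and NaCcore in Sham occupied 6.80% and 23.8% of these 147, against 1.79% and 6.68% of the other 838. In BNST, which the rule did not use, the 147 were occupied at 67.5% and the other 838 at 30.01%. In MS they stood at 51.4% against 36.4% and in LS at 47.8% against 34.96%. The 147 were higher than the others in 12 of 12 libraries of LS, MS and BNST and in 1 of 12 libraries of VMH, arc, PVN and MPOA. In arc they stood at 24.9% against 51.4%, in PAG at 28.7% against 60.2%, and in LC at 69.0% against 81.5%. In NaCshell, the neighbouring shell, they stood at 2.04% against 1.94%, and in BLA at 12.9% against 8.26%. Having used 2 of the 4 telencephalic libraries that the rule allows, they had room for at most 2 of the other 38, so that lower values elsewhere in the telencephalon follow from the choice. They were also above the others in 20 of the 28 brainstem and diencephalic libraries. Their peaks in those libraries had a median rank of 61.2% against 52.1% (100% for the strongest peak of a list) and 29.9% of them adjoined a window common in the telencephalon, against 15.99%. The part of rank and position in the differences was not tested. The set was chosen after its values were seen and was not tested.

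**Figure D5:**
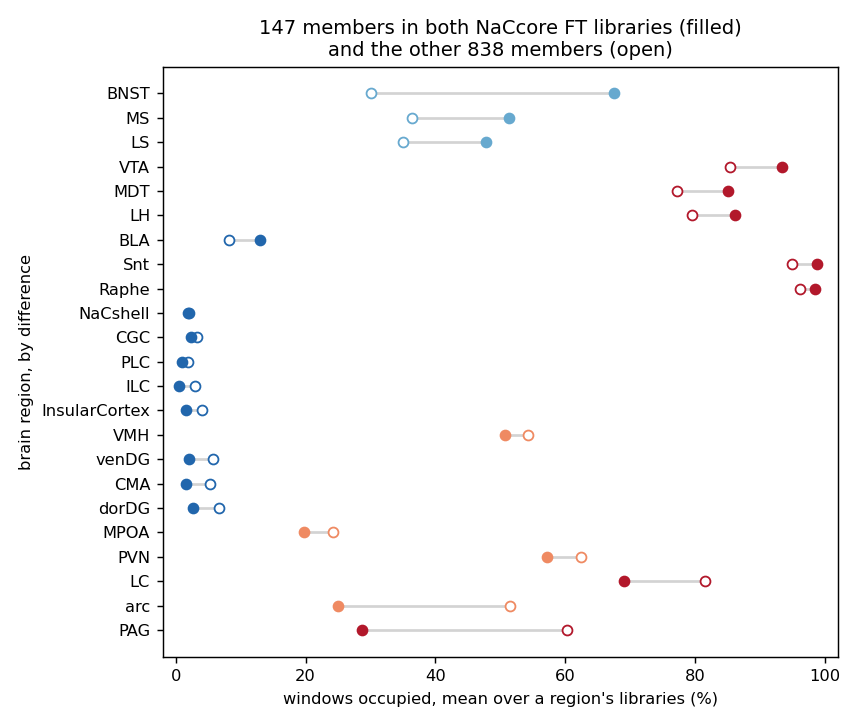
Percent of windows occupied (horizontal axis), as a mean over the libraries of a region, for the 147 members occupied in both NaCcore FT libraries (filled) and for the other 838 members (open), in 23 regions ordered by the difference (vertical axis). BNST, MS and LS show the filled point to the right, and PAG, arc and LC show it to the left.

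Peaks over members had a middling rank. Peaks of a list were ordered by the authors' −log10 p-value, with 100% for the strongest. The median rank of peaks over members, taken per library, ran from 43.9% to 59.6% over the 28 brainstem and diencephalic libraries, with a median of 53.1%. In the same libraries peaks over shared windows had a median rank of 80.7%. The mirror set had a median rank of 66.8% in its own 40 libraries, so that the members were the weaker of the 2 regional sets. Where members did occur in the 40 telencephalic libraries, the peaks there had a median rank of 26.1% and a median width of 1125 bp, against 1800 bp in the brainstem and diencephalon. In VMH, arc, PVN and MPOA the median rank was 48.0% and in LS, MS and BNST 41.2%. When each list was held to its 19378 best peaks, the length of the shortest list, the 28 libraries occupied only 24.4% to 45.8% of the members, and the 40 occupied 8.43% or less.

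The members were scattered. They formed 920 loci, counting adjoining windows as 1 locus, of which 855 (92.9%) were single windows and 65 were pairs, with none longer. The mirror set formed 758 loci, of which 83.4% were single windows and the longest had 3. The median distance from a member to the next member on the chromosome was 393 kb, against 96 kb in the mirror set. From a member to the nearest shared window it was 14 kb, against 36 kb in the mirror set. A shared window adjoined 178 members (18.1%), so that these members lie at the edge of an element marked in both parts of the brain, and 4.05% of the mirror set. These 178 were at 44.5% in LS, MS and BNST and the other 807 at 35.4%, whereas in VMH, arc, PVN and MPOA they stood at 43.1% and 46.6%. A further set of 204 members lay over 10 kb from any window occupied in more than 10% of the 40 telencephalic libraries. They stood at 50.7% in VMH, arc, PVN and MPOA and at 32.6% in LS, MS and BNST.

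Every chromosome from 1 to 20 held members. Per 1000 windows occupied in any library the genome had 3.47, with the highest value on chromosome 5 (4.66, 88 members) and the lowest on chromosome 14 (2.51, 26 members). Chromosome 5 held the fewest windows of the mirror set on the same scale (1.75). The densest stretch of 1 Mb was chr5:164000001-165000000 with 9 members among 251 occupied windows. It was followed by chr5:152000001-153000000 with 7 of 239 and chr16:1000001-2000000 with 7 of 273. No value of chance was computed for these stretches. Genes and sequence could not be given for any window, since the gene tables and sequences at hand were of another rat assembly and were not used here, and for the same reason the region labels were not checked against marker genes.

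The loci of 2 windows with the highest occupancy show the pattern at single elements, as counted on full lists. The locus chr6:106099001-106101000 was occupied in 28 of 28 brainstem and diencephalic libraries and in 1 of 40 telencephalic libraries, a dorDG library. In the unused regions it was occupied in 4 of 4 VMH, 3 of 3 arc, 2 of 2 PVN and 1 of 3 MPOA libraries, and in 1 of 12 of LS, MS and BNST. Its peaks had a median rank of 68.2% and a median width of 2100 bp. The locus chr8:81913001-81915000 was alike, with 28 of 28, 1 of 40, 11 of 12 in VMH, arc, PVN and MPOA, and 1 of 12 in LS, MS and BNST. In both, the class of VMH, arc, PVN and MPOA was high and that of LS, MS and BNST low. The locus chr16:1223001-1225000, which lies in one of the dense stretches, was occupied in 28 of 28 and in 0 of 40, and MS held it in 4 of 4 libraries while BNST held it in 0 of 4. The locus chr3:183442001-183444000 was in 27 of 28, in 7 of 12 and in 0 of 12 of LS, MS and BNST, and it had the highest median rank of the 10 loci, 78.7%.

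The other 6 of the 10 loci were chr8:120860001-120862000, chr3:127108001-127110000, chr1:35320001-35322000, chr8:93806001-93808000, chr12:42618001-42620000 and chr2:160922001-160924000. Each was occupied in 27 or 28 of the 28 libraries and in 1 to 6 of the 40, counting a library with either window. They differed in the septum and BNST, where chr8:93806001-93808000, chr3:127108001-127110000 and chr2:160922001-160924000 were in 9 of 12 libraries each and chr12:42618001-42620000 was in 3.

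Among the 65 loci of 2 windows, 5 had the highest occupancy in the 24 unused libraries. They were chr7:60396001-60398000 with 22 of 24, chr8:93806001-93808000 and chr18:1603001-1605000 with 21 each, chr2:160922001-160924000 with 20 and chr3:127108001-127110000 with 19. The first was in 12 of 12 libraries of LS, MS and BNST and yet in 4 of the 40 telencephalic libraries of the rule. The lowest were chr16:59501001-59503000 and chr19:65283001-65285000, each in 24 of 28 and in none of the 40 and none of the 24. The first of these was in 1 of 4 MDT and 3 of 4 LH libraries and in all 20 of VTA, PAG, Raphe, LC and Snt. The second was in 2 of 4 libraries of MDT and of LH and in all 20 of the same 5 regions. The remaining low loci were chr5:152475001-152477000 with 4 of 24, chr3:97635001-97637000 with 5 and chr3:18574001-18576000 with 6. The last was in 0 of 4 PAG libraries.

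Fluoxetine was compared with Sham over the members as a set. In the 7 unused regions the share of members was higher in FT by 23.1 percentage points ± 17.5 (SD, n = 7 regions), in 6 of 7 regions (two-sided exact sign-flip permutation test, p = 0.0313, adjusted p = 0.0781 over 5 tests). With FT and Sham libraries of the same replicate number taken as pairs it was 24.8 percentage points ± 21.4 (SD, n = 11 pairs), in 10 of 11 pairs (exact permutation, p = 0.00586, adjusted p = 0.0146). The estimate was much the same, but both pairs of a region count as separate units there. The call thus depends on the unit taken, regions or pairs. MS and MPOA had the largest gaps, 49.3 and 41.7 percentage points, and arc the only negative value, -2.18. FT lists also held more windows of all kinds in 6 of these 7 regions: the log2 ratio of FT to Sham was 0.55 for all occupied windows and 1.01 for members, as means over regions. On lists held to 19378 peaks the difference was 3.71 percentage points (exact permutation, p = 0.0469), and per 1000 occupied windows it was 1.85 members (exact permutation, p = 0.0469, chosen after the data were seen). Without Sham replicate 2 it was 15.6 percentage points (exact permutation, p = 0.0938), and without Sham replicate 1, which leaves 5 regions and 0.0625 as the smallest p, 40.9.

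In the regions of the rule the shares had been bounded by the choice of members, so that FT and Sham are given there as values with no test. In the 7 brainstem and diencephalic regions the share was higher in FT in 7 of 7, by 12.6 percentage points ± 7.47 (SD, n = 7 regions). On lists of 19378 peaks it was 1.86 percentage points, with 5 of 7 regions higher in FT. Without Sham replicate 2 it was 1.40, with 2 of 7 regions higher in FT. Per 1000 occupied windows it was 0.0181 members, with 3 of 7 regions higher in FT. In the 10 telencephalic regions the difference was 3.29 percentage points ± 6.91 (SD, n = 10 regions), with 8 of 10 higher in FT. It was 20.3 in NaCcore and -4.57 and -3.65 in dorDG and venDG. In the unused regions, the treatment difference was 17.0 percentage points over VMH, arc, PVN and MPOA and 31.3 over LS, MS and BNST, and the difference of these, -14.3, did not pass the test (exact permutation over 7 regions, p = 0.314, adjusted p = 0.393).

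Within a region, windows occupied in both FT libraries and in no Sham library were counted beside the same count over all windows. In 9 of the 21 regions with 4 libraries the members' share was above that of all windows, and in 12 it was below. In MS these were 313 of the 769 members occupied in any MS library (40.7%), where the share among all windows was 24.4%. In NaCcore they were 105 of 392 (26.8%) where all windows gave 17.2%, in BNST 110 of 661 (16.6%) where all windows gave 12.8%, and in LS 83 of 660 (12.6%) where all gave 8.42%. In CMA they were 22 of 134 (16.4%) where all gave 11.9%. In VTA they were 36 of 982 (3.67%) where all gave 8.84%, and in Raphe 6 of 985 (0.609%) where all gave 5.29%. In LC they were 48 of 983 (4.88%) where all gave 2.49%. These 8 regions were named after the counts were seen, the counts have no test, and members are near full occupancy in Raphe and VTA by the rule.

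Window by window, FT was compared with Sham over 24 regions by a two-sided exact sign test on lists of 19378 peaks, with p-values adjusted over 50028 windows that were occupied in 10 or more libraries and empty in 10 or more. Of the 985 members, 526 could be tested. Higher occupancy in FT was called for 4 members (0.760%), where the share called among all windows was 4.03%, and higher occupancy in Sham for 0 members, where it was 0.154%. The share of members called was thus under the background. The rule keeps members out of most telencephalic libraries, so that most telencephalic regions could not differ between FT and Sham at a member. A region without a difference adds nothing to a sign test. The rule therefore bounds the share of members called, here and in the other settings of this paragraph. No conclusion is drawn from its distance to the share of all windows. At an unadjusted threshold of 0.05 47 members (8.94%) had more FT and 2 (0.380%) more Sham occupancy, where the shares of all windows were 18% and 1.4%. The 4 windows were chr5:40572001-40573000, chr5:140460001-140461000, chr1:227926001-227927000 and chr17:26364001-26365000. In 24 of the 46 FT libraries the first was occupied, and in 10 of the 46 Sham libraries. FT exceeded Sham at this window in 13 regions and Sham exceeded FT in 0 (two-sided exact sign test over regions, adjusted p = 0.0222). Of its FT libraries 14 were brainstem and diencephalic ones, 3 telencephalic ones of the rule and 7 of unused regions. For the second, FT and Sham counts were 21 and 10 (adjusted p = 0.0347 by the same exact test), for the third 28 and 15, and for the last 20 and 9 (adjusted p = 0.0467 each, same exact test). With FT and Sham of the same replicate number as pairs, 18 members were called higher in FT (3.42%), where the share of all windows was 9.47%, and without Sham replicate 2 none was, neither among members nor among all windows, though 13 members favoured FT and 0 favoured Sham at the unadjusted threshold, as did 3586 (8.71%) and 800 (1.94%) of all windows. On full lists 85 of 985 members were called higher in FT (8.63%), where the share among all windows was 17.7%.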

How the data were processed

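H3K27ac peak lists of 94 libraries were used, 1 per library. Per the labels the authors aligned reads to rn5 with BWA, and per their methods they called peaks with DFilter on each library (versions not given in the sources used here). The deposited columns were a filter score and a tag score per peak, a −log10 p-value from 4 to 200 as the authors gave it, and a false discovery rate that the authors deposited as a percent and that was 0 throughout. Read depth is unknown, and lists held 19378 to 54505 peaks outside HB. The lists give no read counts, so occupancy of windows was analysed.

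Members, the mirror set, the rule for named loci and the tests were chosen with earlier results of these data known. Lists of equal size held the 19378 peaks with the highest −log10 p-value, then score. Loci named were the 10 with most windows (ties by share of the 28, then of the 40 libraries), the 5 highest and 5 lowest of 2 windows in the unused libraries, and members called between treatments. Shares were compared over region means by exact permutation, adjusted over 5 tests, of which the 2 on libraries of the rule are reported as values only, and windows by exact sign tests with Benjamini-Hochberg adjustment (threshold 0.05). The sign test was tested on simulated data. Replicate numbers pair FT and Sham, which the study processed in parallel. Deviations of replicate 1 from 2 in Sham and FT correlated at 0.0161 on average over windows of 21 regions (-0.0672 to 0.126). No list was identical to another. Alternatives were list size, stricter peaks (−log10 p of 6 or more), overlap, thresholds, treatment, left-out replicates and pairs. Inputs, gene annotation and genome sequence were not used here. Python 3.11.15, numpy 2.4.6, scipy 1.17.1 and pandas 2.3.3 were used.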

Additional observations from a re-analysis of the deposited data

Results flagged for a closer look

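In 5 of the 21 regions with 4 libraries, the share of members in a single library lay far from the other 3 by Dixon's criterion, which chance meets in about 1 in 20 groups. Sham replicate 2 was low in LH (43.5%), VTA (65.1%), PAG (39.9%) and Snt (89.3%). Those 4 libraries also occupied fewer windows in all than the other libraries of their region, 45167, 50428, 44418 and 71047, and the part of this in the shares was not tested. Sham replicate 1 was high in dorDG (14.1%), with 73493 windows occupied, between the Sham replicate 2 and the FT libraries of that region.

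The habenula, HB, lies in the diencephalon and was outside the rule and outside all comparisons. Its FT library occupied 64.3% of the members, above every telencephalic library of the rule. Its Sham library occupied 1 member (0.102%) and 0.315% of the shared windows, where the FT library occupied 99.6% of the shared windows. The highest Jaccard index (windows in both lists over windows in either) of the Sham library with any other was 0.0304, and that of the FT library was 0.647. The Sham list thus lacked nearly all of the shared windows, and no FT and Sham comparison was made in HB.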

How the results depend on the processing

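Read depth is unknown and limits every statement on an absent peak. The number of members was 985. It was 1543 when any overlap counted, 442 when the whole window had to be covered, 67 with 90% or more and 5% or less, and 1589 on FT libraries alone, and it stayed within 1.5 times on lists of equal size (672), on stricter peaks (967) and on Sham libraries alone (873). Of these windows 195, 584 and 457 were among the 985, as were 427, 40, 67 and 772 of those before, so that like counts stand for partly different windows. Leaving out a replicate gave 818 to 1619. No choice moved the difference between VMH, arc, PVN and MPOA and the LS, MS and BNST class past the threshold (6.99 to 13.3 percentage points without a replicate, the other planned choices on this scale 4.24 to 18.5). The choice without MPOA could not pass it, since its p was the smallest possible there. FT minus Sham in the 7 unused regions kept its sign, with 15.6 to 40.9 percentage points without a replicate and a p over 0.05 in 3 of those 4 cases. The cases without Sham replicate 1 and without FT replicate 1 left 5 regions. The exact permutation test cannot give a p under 0.0625 there. In the 7 regions of the rule FT minus Sham was 1.86 percentage points on lists of equal size and 0.0181 members per 1000 occupied windows. It was 1.40 to 23.9 percentage points without a replicate. The lowest value, without Sham replicate 2, had 2 of 7 regions higher in FT. In the 10 telencephalic regions it was 0.766 on lists of equal size, 7.68 with any overlap and 2.24 to 4.35 without a replicate. Windows called numbered 2094, 4 of them members. They were 18107 and 85 on full lists, 20678 and 83 on stricter full lists, 598 and 1 on the 10000 best peaks, 1510 and 0 with any overlap, and 0 to 2039 and 0 to 3 without a replicate, where the lack of Sham replicate 2 gave 0. With the replicate block, pairs of like number as units, 4958 windows and 18 members were called, and FT minus Sham in the 7 unused regions (24.8 percentage points) passed the adjusted threshold (exact permutation, adjusted p = 0.0146). Both pairs of a region count as separate units there, and with regions as units this difference did not pass. The 2 tests between classes of regions were not run with pairs. The cause of these shifts was not tested. Of the 24 region shares, 16 moved by more than the spread of their libraries on lists of equal size, 16 with any overlap and 5 on stricter peaks. On full lists the 10 loci with most windows were in 96.4% to 100% of the 28 libraries. Lists of equal size put them in 32.1% to 92.9%. Among the other named loci, chr7:60396001-60398000 fell from 92.9% to 3.57% and chr3:97635001-97637000 from 89.3% to 3.57%, while chr18:1603001-1605000 kept 82.1%.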
